A study of Schmidtea mediterranea with 40 samples.

Results

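Schmidtea mediterranea (Smed) is a freshwater flatworm that lives as 2 biotypes, a hermaphrodite that mates and lays egg capsules and an asexual form that multiplies by fission. The 73 transcripts described here were abundant in asexual adults and scarce in virgin sexual adults, and were also present in hatchling-stage embryos of the sexual biotype. They were chosen from 35262 transcripts by their average RPKM (reads per kilobase of transcript, scaled to library size): at least 5 in asexual C4 adults, at most 0.2 of the C4 average in sexual SX adults, and at least 0.2 of the C4 average in stage 8 (S8) embryos. Of 9704 transcripts averaging at least 5 RPKM in C4, 161 (1.66%) met the limit on SX, and 73 of these also met the limit on S8. For scale, 1756 of 10780 transcripts averaging at least 5 RPKM in SX (16.3%) were at or below 0.2 of the SX average in C4. Because C4, SX and S8 values chose the transcripts, these values are given below as a description with no test.

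RNA was sequenced from 4 samples in each of 10 groups. S2, S3, S4, S5, S6, S7 and S8 were individual embryos of the sexual biotype collected 2, 3, 4, 6, 9, 10 and 14 days after capsule deposition, and Y was the yolk of single egg capsules that held no visible embryo, taken 8 days after deposition and so older than S2 to S5, although its day is labelled 0. The capsules came from outbred animals. C4 were single intact adults of a clonal asexual line (CIW-4) propagated by amputation and regeneration, and SX were single intact, sexually mature virgin adults. No transgene or experimental treatment was reported for any group. The authors added gentamicin to cultures that were cut or fed intensively, and whether these animals were among them is not stated. Adults were homogenised with a tissue disruptor and embryos by pipetting, and the SX libraries shared a lane of another sequencer model than all other groups, so biotype, strain, reproductive maturity and sequencing run cannot be told apart between C4 and SX. All samples are bulk RNA, in which fewer cells of a type and less RNA per cell cannot be told apart.

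Planarians rebuild every tissue from neoblasts, the dividing stem cells that express piwi genes. A sexual adult adds testes, ovaries, yolk glands and copulatory organs to the somatic tissues that an asexual adult or a hatchling has. The deposited libraries held 5732627 to 17479851 reads on transcripts, from which 1 read on a 1 kb transcript was worth 0.0310 to 0.0525 RPKM in C4, 0.0330 to 0.0409 RPKM in SX and 0.273 to 0.517 RPKM in Y. Markers fitted the adult labels. The testis transcript spermatid elongation defective 1 averaged 543 RPKM in SX and 0.0956 in C4, and piwi-1 averaged 89.9 in SX and 98.8 in C4. The neuronal transcription factors coe and pou4 averaged 1.20 and 0.911 RPKM in SX against 5.21 and 3.42 in C4. The early epidermal progenitor transcripts prog-1 and prog-2 averaged 340 and 625 in SX against 220 and 626 in C4. The later epidermal progenitor transcripts AGAT-1 and AGAT-2 averaged 99.3 and 107 in SX against 175 and 164 in C4. The part of such tissue shares in the values below was not tested. Some libraries stood apart. C4 replicate 2 had a median of 0.401 RPKM over all transcripts (0.597 to 0.764 in the other C4 libraries), and 47 of the 73 transcripts (64.4%) were highest in it, as were 60.6% of all transcripts averaging at least 5 RPKM in C4. S2 replicate 2 carried transcripts of later epidermal progenitors, with AGAT-1 at 65.8 RPKM against 1.59 to 4.71 in the other S2 embryos, and 39 of the 73 transcripts (53.4%) were highest there, beside 37.5% of all transcripts averaging at least 5 RPKM in C4. VAL-like, a transcript of the temporary embryonic pharynx, was at 339 and 528 RPKM in S2 replicates 1 and 2 and at 1.66 and 1.30 in replicates 3 and 4, so the S2 embryos were not alike.

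The 73 transcripts spanned C4 averages of 5.16 to 717 RPKM (median 12), with 8 at 100 RPKM or more. The C4 average was 5.00 to 134 times the SX average (median 7.52 among those with SX reads). Every C4 sample lay above every SX sample for all 73. The limit on SX favours this, so the 42.7% among all transcripts averaging at least 5 RPKM in C4 is given for scale only. In S8 the transcripts stood at a median of 0.43 of their C4 average, and 5 exceeded it. C4 was the highest of the 10 groups for 61 transcripts and SX for 0, the latter fixed by the limit on SX. The transcripts were short, with a median length of 573 bases beside 1387 for all transcripts averaging at least 5 RPKM in C4, and the study's annotation tables gave a protein match for 16 of them. The other 57 are named here by identifier alone. The nearest transcripts inside and outside each limit were SMED30004110 and SMED30019407 at C4 averages of 5.16 and 4.87 RPKM, SMED30029570 and SMED30015867 at SX averages of 0.1999 and 0.2002 of C4, and SMED30005265 and SMED30008249 at S8 averages of 0.206 and 0.195 of C4.

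**Figure D1:**
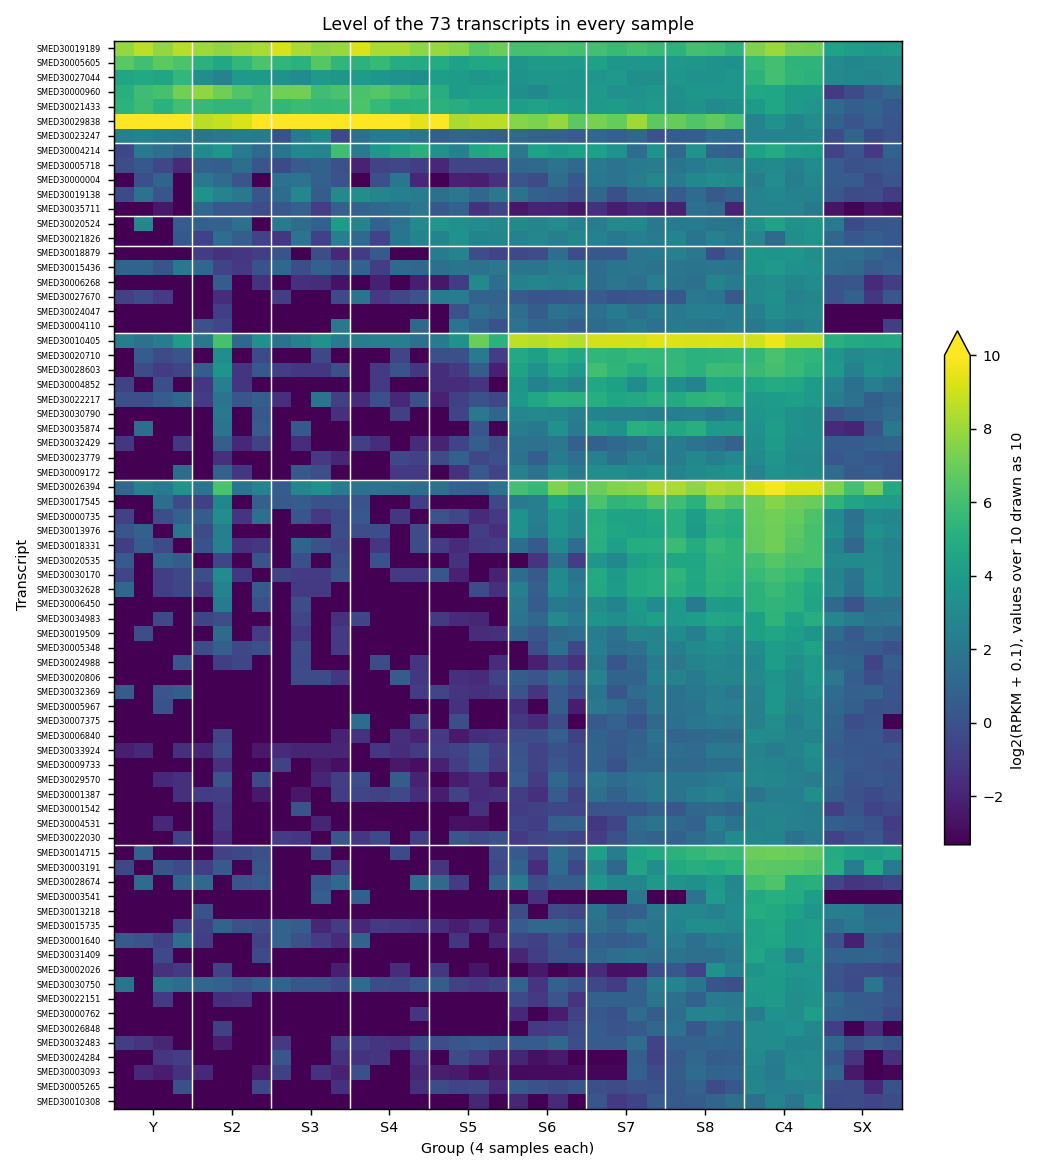
Level of each of the 73 transcripts (rows) in all 40 samples (columns, 4 per group), as log2(RPKM + 0.1), with rows ordered by the first of Y to S8 that reached 0.2 of the C4 average and, within these, by C4 average. Most rows are dark from Y to S5 and brighten from S6 to C4, a band at the top is bright from yolk onwards, and the SX columns are darker than the C4 columns in every row.

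SMED30026394 had the highest C4 average, 717 ± 142 RPKM (SD, n = 4). It was listed at 662, 930, 640 and 637 RPKM in the C4 replicates, and at 168, 65.0, 156 and 27.0 in the SX replicates. All C4 values lay above all SX values, but the SX animals themselves differed, with replicates 1 and 3 high. In embryos it stood at 1.45 to 3.20 RPKM in S5, 46.6 to 169 in S6, 125 to 345 in S7 and 207 to 343 in S8. The transcripts with the most similar course over the averages of Y and S2 to S8 were SMED30000735, SMED30017545 and SMED30028603, with a Pearson's r of 0.99 each for log2(RPKM + 0.1) over these 8 groups, which share library scaling.

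SMED30010405, with no protein match, reached its adult level earlier and was not lower in hatchlings than in C4. It was at 527, 809, 437 and 446 RPKM in C4, at 620, 580, 626 and 581 in S8 and at 35.1, 28.6, 24.1 and 26.0 in SX. The S8 and C4 values overlapped, and both lay far above SX, where the average was 28.5 ± 4.81 (SD, n = 4). In S5 the embryos were at 4.16, 11.4, 127 and 36 RPKM, so that replicate 3 held most of the S5 signal, and from S6 (365 to 441) on they were alike.

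**Figure D2:**
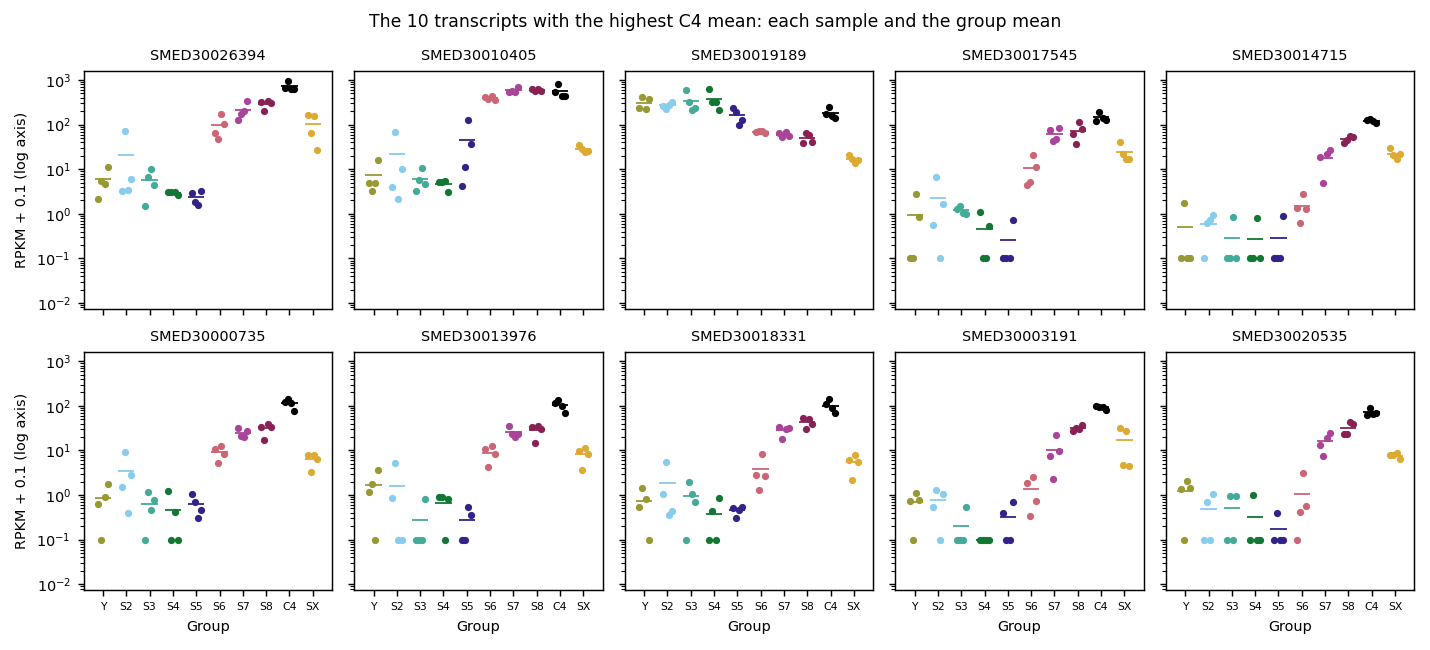
RPKM + 0.1 (log axis) of the 10 transcripts with the highest C4 average in every sample of the 10 groups, with a line at each group's average. In 9 panels the C4 points follow a rise through S6, S7 and S8, SMED30019189 is instead highest from Y to S4, and SX lies below C4 in all 10.

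The largest group with a shared protein match was the CAP superfamily (cysteine-rich secretory proteins, antigen 5 and pathogenesis-related 1), cysteine-rich proteins that are mostly secreted and occur in venoms, plant defence and parasite secretions. It held 6 of the 16 transcripts with a match: SMED30000735 (GLIPR1-like protein 1), SMED30013976 and SMED30018331 (peptidase inhibitor 16), and SMED30006450, SMED30004852 and SMED30019509 (venom allergen 5). SMED30000735 was at 121, 143, 114 and 77.5 RPKM in C4 and at 7.80, 3.16, 7.86 and 6.47 in SX. SMED30018331 was at 109, 139, 87.9 and 68.9 RPKM in C4 and at 6.04, 2.03, 7.81 and 5.45 in SX. The C4 averages of these 6 were 5.29 to 19.0 times their SX averages. In embryos all 6 averaged under 1 RPKM from S3 to S5 and 5.21 to 28.4 RPKM in S7.

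In 4 of the 5 groups from S6 on, the 6 CAP transcripts were lowest in the same animal. All 6 were lowest in replicate 2 of S6, of S8 and of SX, and in replicate 4 of C4, while in S7 3 were lowest in replicate 2 and 3 in replicate 3. Over all transcripts averaging at least 5 RPKM in C4, the same libraries were the lowest of their group for 31.4% (S6 replicate 2), 23.9% (S8 replicate 2), 28.9% (SX replicate 2) and 53.6% (C4 replicate 4). Of the 73 transcripts, the CAP transcripts included, 36 were lowest in S6 replicate 2 and 30 in C4 replicate 4. In S6 and C4 the low library was therefore not particular to the CAP transcripts. In S8 and SX, most of the 73 were lowest in a library other than that of the CAP transcripts. In S8, 25 of the 73 were lowest in replicate 2 and 32 in replicate 1. In SX, 21 were lowest in replicate 2 and 23 in replicate 4. In S8, SMED30006450 was at 14.1, 4.37, 15.7 and 15.2 RPKM, and SMED30004852 at 9.98, 6.06, 25.1 and 22.6. Reads matching up to 5 transcripts were kept by the authors, so near-identical relatives could share reads, and these values are uncertain to that extent.

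The study's tables matched 30 transcripts to this superfamily by name, a list drawn up after values were seen and described here without a test. Of 22 that averaged at least 5 RPKM in C4, 17 were lower in SX on average and 5 higher, with a median log2(SX/C4), taken with 0.1 RPKM added to both averages, of -0.88 beside -0.32 for all transcripts at that C4 level. SMED30009891 (peptidase inhibitor 16) and SMED30013734 (a CRISP/Allergen/PR-1 protein) met the limit on SX and failed only that on S8. SMED30013734 was at 122, 151, 114 and 74.9 RPKM in C4, 4.25, 2.58, 7.87 and 5.35 in SX and 25.5, 6.97, 17.6 and 17.2 in S8. SMED30018781 (venom allergen 5) went the other way, at 38.7, 24.3, 14.4 and 17.4 RPKM in C4 and 170, 117, 91.4 and 165 in SX. SMED30002634 (GLIPR1-like protein 1), the most abundant in C4, was at 584 to 886 RPKM in C4 and 424 to 561 in SX. The superfamily as a whole was therefore not uniformly lower in sexual adults. A rise in embryos was not particular to the 6 either. SMED30018781 averaged 0.55 RPKM in S5 and 88.1 in S7, and SMED30002634 3.56 and 571. Not all CAP transcripts rose, since VAL-like (SMED30015313) averaged 879 RPKM in S4 and 1.19 in S7.

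**Figure D3:**
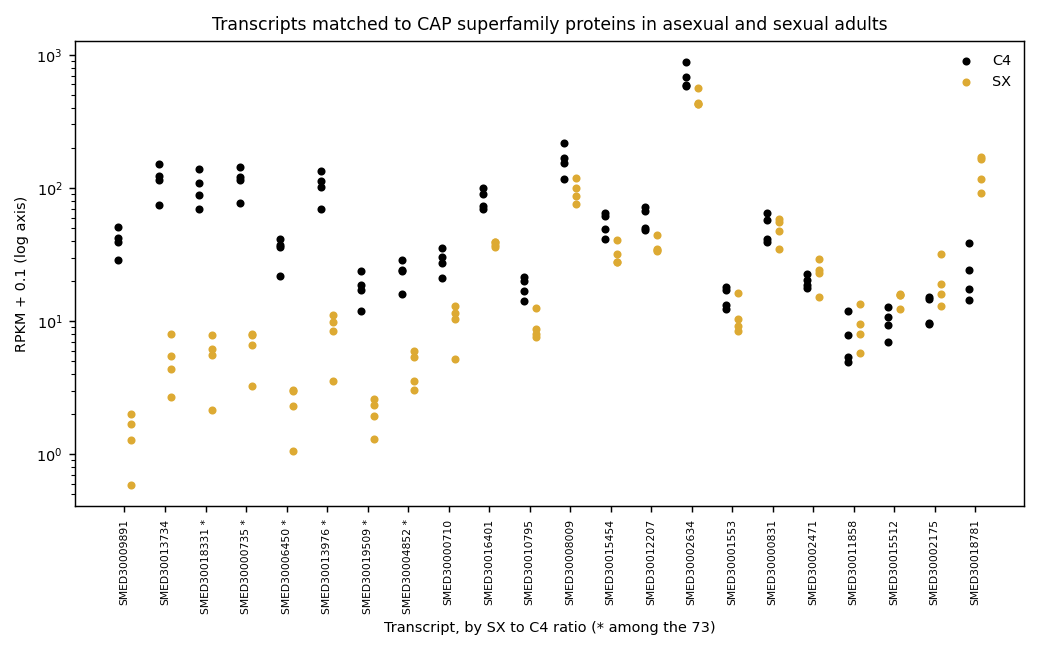
RPKM + 0.1 (log axis) in each C4 (black) and SX (yellow) sample for the 22 transcripts matched to CAP superfamily proteins with a C4 average of at least 5 RPKM, ordered by the SX to C4 ratio, with an asterisk on the 6 that are among the 73. The 8 leftmost transcripts are separated by a wide gap, the next ones lie closer together or overlap, and SMED30018781 at the far right is higher in SX.

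Among the other matched transcripts, SMED30003191 encodes the planarian mmp2 protein, a matrix metalloproteinase, a class of secreted proteases that cut extracellular matrix. It was at 98.8, 95.4, 92.5 and 81.0 RPKM in C4 and 27.2, 31.9, 29.7 and 36.4 in S8. In SX it was at 31.1, 4.65, 27.5 and 4.31, so replicates 1 and 3 were near the S8 level and replicates 2 and 4 far below it. Neither its change from S5 to S6 nor that from S6 to S7 was called (adjusted p of 0.057 and 0.070 by limma). SMED30014715, SMED30020535 and SMED30005348 had no protein match. SMED30014715 was at 109 to 134 RPKM in C4, 37.7 to 55.8 in S8 and 16.7 to 29.2 in SX. SMED30020535 was at 61.4 to 89.0 RPKM in C4, 23.5 to 42.3 in S8 and 6.32 to 8.47 in SX.

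Metabolic enzymes were represented by a pair of transcripts. SMED30020710 matched mitochondrial succinyl-CoA:3-ketoacid coenzyme A transferase, which activates ketone bodies for oxidation, and was at 45.6, 72.7, 48 and 43.99 RPKM in C4 and 12.6, 7.58, 9.00 and 8.61 in SX. Its S8 values, 44.4, 36.2, 39.4 and 40.4, overlapped those of C4. SMED30022217 matched trans-L-3-hydroxyproline dehydratase, which breaks down a modified proline, and was higher in hatchlings than in either adult. It was at 27.8, 38.9, 43.7 and 33.0 RPKM in S8, at 14.0, 16.6, 18.0 and 14.0 in C4 and at 4.91, 3.18, 1.54 and 2.05 in SX.

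Channels and receptors made up 4 further matches, all at single-digit C4 averages. SMED30009172 (neuronal acetylcholine receptor subunit alpha-7, a ligand-gated cation channel) averaged 8.65 ± 2.17 RPKM in C4, 8.65 ± 1.90 in S8 and 1.57 ± 0.677 in SX (SD, n = 4). SMED30009733 (polycystin-2, a cation channel of the TRP family) averaged 6.43 ± 0.871 in C4, 2.49 ± 0.193 in S8 and 1.19 ± 0.325 in SX. SMED30001387 (glutamate receptor delta-1, of the ionotropic glutamate receptor family) averaged 5.87 ± 2.50, 4.69 ± 1.12 and 0.980 ± 0.315 RPKM in C4, S8 and SX. SMED30004531 (bestrophin-3, of a family of chloride channels) averaged 5.69 ± 0.618, 3.10 ± 1.53 and 1.03 ± 0.484 in the same groups. The neuronal markers coe (4.98 to 5.59 RPKM in C4, 0.888 to 1.77 in SX) and pou4 (2.79 to 4.31 and 0.644 to 1.13) also differed between the adults, and their part in these values was not tested. The remaining matches were SMED30006840 (YbeT, 7.06 RPKM in C4 and 1.12 in SX), SMED30001640 (an uncharacterised protein of the liver fluke Clonorchis sinensis, 18.7 and 0.948) and SMED30035711 (strawberry notch homolog 1, 5.59 and 0.0418).

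A few transcripts were at or close to 0 in every sexual adult. SMED30003541 had 408 reads in C4 (25.8, 33.0, 28.7 and 17.3 RPKM) and 0 in the 4 SX libraries, which makes it at least 146-fold lower in SX when SX is set to the limit of 3 reads over the group. SMED30024047 had 261 reads in C4 (5.31, 9.43, 6.88 and 7.18 RPKM) and 0 in SX, at least 91.4-fold lower by the same limit. SMED30004110 had 3 SX reads, all in replicate 4, and a C4 to SX ratio of 45.5, with a 95% interval of 15.6 to 221 from the exact Poisson limits of those 3 reads. SMED30028674 had 1004 C4 reads and 10 SX reads (30.4 to 80.7 and 0.319 to 0.592 RPKM). These intervals and limits cover counting error only.

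SMED30035711, whose match, strawberry notch, is a helicase-like protein that acts in Notch signalling in Drosophila, had the highest C4 to SX ratio among transcripts with SX reads, 134. It was at 5.85, 6.18, 6.23 and 4.10 RPKM in C4 and 0.0607, 0.01, 0.0593 and 0.0371 in SX. Among S8 embryos, replicates 2 and 3 were at 2.78 and 2.38 RPKM and replicates 1 and 4 at 0.128 and 0.153, near the SX level. SMED30027670 followed the same animals at S8, with 3.87 and 3.55 RPKM in replicates 2 and 3 and 1.19 and 1.20 in replicates 1 and 4.

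Other transcripts also separated individuals. A transcript was called split in a group when its highest sample reached 5 RPKM and its lowest was at most 0.1 of that. In S8, 2 of the 51 transcripts that reached 5 RPKM were split, beside 33 of 9782 (0.337%) of all transcripts. SMED30003541 was at 0, 3.25, 16.3 and 7.87 RPKM in S8, and SMED30002026 at 1.18, 0.531, 11.5 and 5.32, against 12 to 15.5 in C4 and 0.630 to 1.07 in SX. In S7 only SMED30003191 of 36 was split (7.51, 2.14, 21.8 and 9.44 RPKM), beside 0.823% of all. In S5 3 of 12 were, SMED30010405, SMED30018879 and SMED30006268, beside 2.61%. In S6 0 of 26 were split, in C4 0 of 73 and in SX 0 of 19, near the 0.359%, 0.343% and 1.68% of all transcripts. On the log2(RPKM + 0.1) scale the median SD between replicates was 0.36 in S8, 0.36 in C4 and 0.49 in SX, beside 0.14, 0.21 and 0.18 for all transcripts averaging at least 5 RPKM in C4. The 73 had lower SX levels (median of the averages 1.47 RPKM), where counting error is larger. The SX spread was also uneven between animals, since 46 of the 73 (63.0%) were highest in SX replicate 1, beside 32.6% of all transcripts averaging at least 5 RPKM in C4.

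**Figure D4:**
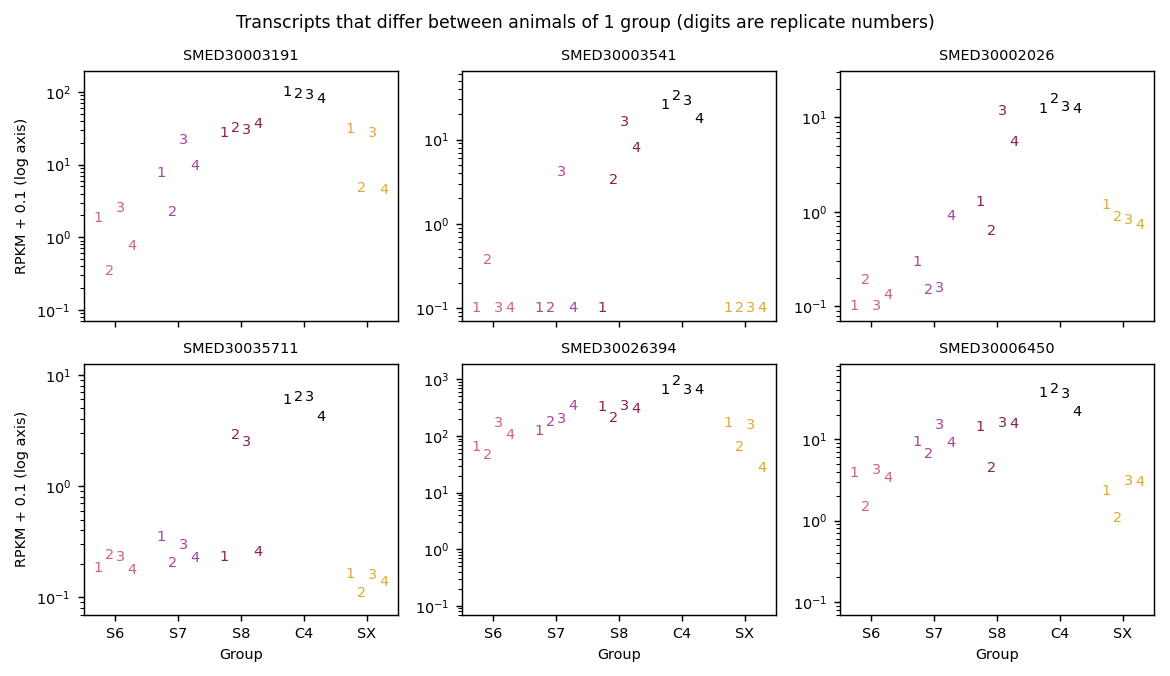
RPKM + 0.1 (log axis) of 6 transcripts in S6, S7, S8, C4 and SX, each sample drawn as its replicate number. SMED30003541, SMED30002026 and SMED30035711 differ widely among S8 embryos but little among C4 animals, and SMED30003191 has SX replicates 1 and 3 above replicates 2 and 4.

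When the 73 transcripts appeared in development depended on the level asked for. Taking the first group that reached 0.2 of the C4 average, 43 did so in S7 or S8 (25 and 18), 16 in S5 or S6 (6 and 10) and 14 between Y and S4 (7, 5, 2 and 0 in Y, S2, S3 and S4). At 0.1 of the C4 average 26 were as late as S7 or S8, and at an average of 1 RPKM 21 were, with 35 already there between Y and S4. Of these 35, 19 were placed in Y and 15 in S2, where an average of 1 RPKM can rest on few reads or on 1 library. SMED30020535 averaged 1.14 RPKM in Y on 4 reads. SMED30018331 averaged 1.77 in S2, with 5.53 in replicate 2 and 0.267 to 0.931 in the others. These 35 are therefore no count of transcripts present in early embryos. The limit on S8 itself places every transcript by S8 at the latest. In 38 transcripts the average stayed under 1 RPKM in every group from Y to S4. S8 was the highest of Y and S2 to S8 for 52. The median of the averages was 0.27 RPKM in Y, 0.37 in S5, 1.76 in S6, 3.57 in S7, 5.01 in S8 and 12 in C4.

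Y, S2, S4, S5, S6 and S7, which the choice of transcripts did not use, were compared in that order, each with the one before, with limma on log2(RPKM + 0.1) over 31489 transcripts. S3 entered the fit but was not compared. A transcript was called at a Benjamini-Hochberg adjusted p under 0.05 and a change of at least 2-fold. All 73 passed the filter on low values, as the limit on S8 ensured. Any transcript that was low in early embryos had to rise by S8 to be chosen, so the shares called describe when the rise occurred and are no independent sign that it did.

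Of the 5 comparisons, S6 against S5 had the largest share called. It spans days 6 to 9, while S7 against S6 spans days 9 to 10, and S8 was not compared. From S5 to S6, 35 of the 73 (47.9%) were higher, beside 15.4% of all transcripts, and 4 were lower (5.48%, beside 3.59%). The median log2 fold change was 1.54 beside 0.25 for all transcripts. With RPKM by read totals alone, in which the median of all transcripts shifted to 0.85, 45 were higher and 0 lower, and without S5 replicate 1 there were 26 and 0. Under the thresholds that the study used (adjusted p under 1e-05, 5-fold and 1 RPKM) 2 of the 35 were called. The study applied them to edgeR tests on counts and here they were applied to limma, so this count is not what the study would find. All 6 CAP transcripts rose, by 2.77 to 5.30 on the log2 scale. SMED30013976 went from 0 to 0.438 RPKM in S5 to 4.20 to 12.3 in S6 (log2 fold change 5.30 ± 1.03 SE, adjusted p = 0.00036 by limma), and SMED30018331 from 0.212 to 0.429 to 1.23 to 8.34 (2.77 ± 0.85, adjusted p = 0.018, 0.081 without S6 replicate 3). The largest rises without overlap were those of SMED30017545, from 0, 0, 0 and 0.646 RPKM to 4.43, 5.14, 21.2 and 11 (5.71 ± 1.01, adjusted p = 0.00013), and of the hydroxyproline dehydratase transcript SMED30022217, from 0.134 to 0.924 to 13.6 to 36.6 RPKM (5.54 ± 0.68, adjusted p = 1.7e-06). SMED30026394 rose by 5.22 ± 0.66 (adjusted p = 2.3e-06), the ketoacid transferase transcript SMED30020710 by 4.40 ± 0.99 (adjusted p = 0.0016) and bestrophin-3 SMED30004531 by 3.04 ± 0.59 (adjusted p = 0.00032). The acetylcholine receptor transcript SMED30009172 rose by 3.61 ± 0.99 (adjusted p = 0.0076, 0.051 without S5 replicate 1).

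From S6 to S7, 12 of the 73 (16.4%) were higher, beside 1.92% of all transcripts, and 0 were lower, beside 0.14%, with limma. At an unadjusted p under 0.05, 24 were higher and 0 lower, and voom on rebuilt reads called 26 higher and 0 lower. With a pseudocount of 0.01 the count was 1, with a pseudocount of 1 it was 22, and with the replicate block it was 9. SMED30020535 rose most, from 0, 0.307, 2.95 and 0.461 RPKM to 12.9, 7.46, 19.0 and 23.9 (4.82 ± 1.03, adjusted p = 0.0066). SMED30014715 rose from 0.539 to 2.71 RPKM to 4.72 to 27.5 (3.50 ± 0.93, adjusted p = 0.038). Its call was lost without any of S6 replicates 1, 2 and 4 and S7 replicates 1, 3 and 4, where the adjusted p reached 0.17. The count of 12 itself fell to 4 without S6 replicate 2, S7 replicate 1 or S7 replicate 4, to 5 without S6 replicate 1, to 6 without S7 replicate 3 and to 7 without S6 replicate 4.

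**Figure D5:**
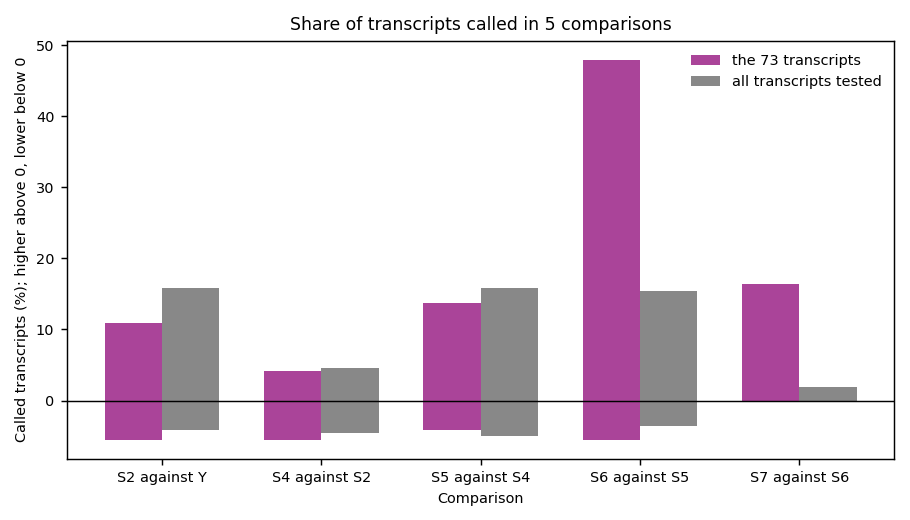
Share of transcripts called (%) in 5 comparisons (S3 not compared), higher above 0 and lower below 0, for the 73 transcripts (purple) and for all 31489 tested (grey). The bars are similar from Y to S5, and the purple bars reach 47.9% against 15.4% for S6 against S5 and 16.4% against 1.92% for S7 against S6.

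In the steps before S5, calls among the 73 went in both directions, at shares near those of all transcripts or below them. In S2 against Y, 8 of the 73 (11%) were higher and 4 (5.48%) lower, beside 15.8% and 4.16% of all transcripts. Without S2 replicate 2, the library with epidermal transcripts, 5 were higher and 3 lower. Scaling moved this split, to 13 higher and 1 lower with RPKM by read totals (median of all transcripts 0.74 in place of 0.38) and to 3 and 7 with quantile normalization (-0.21). SMED30035711 rose from 0, 0, 0.0826 and 0 RPKM in Y to 2.08, 1.13, 1.11 and 0.802 in S2 (3.49 ± 0.63, adjusted p = 8.7e-05 by limma), from 1 read in Y to 80 in S2. SMED30005348 was also called (adjusted p = 0.00035), but on 0 reads in Y and 6 in S2. At its length 1 read was worth 0.862 to 1.63 RPKM in Y, so the S2 values of 0.642 to 1.54 RPKM were near the worth of 1 read there. SMED30001640 was lower in S2, with 2 reads against 8 in Y (-2.40 ± 0.77, adjusted p = 0.021), a call lost without Y replicate 4, S2 replicate 2 or S2 replicate 3 (adjusted p of 0.081, 0.096 and 0.076) or with RPKM by read totals (-1.06, adjusted p = 0.22). In S4 against S2, 3 (4.11%) were higher and 4 (5.48%) lower, beside 4.57% and 4.60%, and without S2 replicate 2 there were 2 and 2. SMED30005348 was called lower (adjusted p = 0.0020) on its 6 reads in S2 and 0 in S4, where 1 read was worth 0.358 to 0.795 RPKM. SMED30005718 fell from 1.04 to 2.74 RPKM to 0.139 to 0.613 (-1.78 ± 0.41, adjusted p = 0.0054). SMED30029838 rose (1.49 ± 0.49, adjusted p = 0.048), from 400 to 1241 RPKM to 694 to 4840, a call lost on leaving out any of 21 libraries, with an adjusted p of up to 0.21. SMED30027670 rose from 0, 0.240, 0 and 0 RPKM to 3.29, 0.372, 0.645 and 1.00 (2.98 ± 0.69, adjusted p = 0.0054, 1 read against 18), and SMED30032483 from 0 to 0.101 to 0.271 to 0.702 (2.10 ± 0.55, adjusted p = 0.012, 1 read against 17, 0.063 with RPKM by read totals).

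In S5 against S4, 10 (13.7%) were higher and 3 (4.11%) lower, near the 15.9% and 5.02% of all transcripts. By read totals there were 17 higher and 0 lower (median of all transcripts 0.81 in place of 0.39), and with quantile normalization 3 and 3 (-0.05). The count of 13 fell to 6 without S4 replicate 1 or S5 replicate 3 and to 7 without S4 replicate 2. Polycystin-2 SMED30009733 rose from 0, 0, 0.0898 and 0.0466 RPKM to 0.131, 0.433, 0.935 and 0.370 (1.94 ± 0.51, adjusted p = 0.0059). SMED30015436 rose from 0.440 to 2.29 RPKM to 2.78 to 3.86 (1.19 ± 0.43, adjusted p = 0.044), a call lost on leaving out any of 9 libraries, with an adjusted p of up to 0.25. SMED30010405 rose by 2.26 ± 0.76 (adjusted p = 0.029, 0.19 without S5 replicate 3, the embryo at 127 RPKM).

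In scaled RPKM, a minority followed the opposite course and was highest in yolk and early embryos. SMED30029838 was the most abundant of the 73 in yolk, at 1603, 5219, 1829 and 3713 RPKM in Y, and at 116, 83.6, 106 and 72.1 in S8, 6.36, 10.7, 6.46 and 9.12 in C4 and 1.65, 1.05, 1.62 and 1.04 in SX. SMED30019189 was at 230 to 409 RPKM in Y, 213 to 620 in S4, 63.7 to 71.4 in S6, 39.0 to 63.8 in S8, 144 to 251 in C4 and 13.9 to 20.4 in SX, so that C4 lay above both hatchlings and sexual adults. SMED30000960 (34.1 to 141 RPKM in Y, 62.5 to 222 in S2 and 10.1 to 13.3 in S8) and SMED30021433 (36.4 to 62.5, 43.3 to 59.9 and 7.77 to 11) followed a similar course. In all, 6 of the 73 averaged at least their C4 level in some group from Y to S4. These levels also depended on the library scaling, which raised RPKM in Y relative to C4. In reads, SMED30019189 had 1168 in Y and 6182 in C4, SMED30000960 263 and 604, and SMED30021433 564 and 1677. The median library held 1.15e+07 reads in Y and 1.47e+07 in C4, so by read totals alone Y lay below C4 for them. The gap of SMED30029838, from at least 1603 RPKM in Y to at most 10.7 in C4, was wider than the scaling.

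The falls were called in S5 against S4 for SMED30000960 (-1.76 ± 0.36, adjusted p = 0.00060 by limma), SMED30029838 (-1.82 ± 0.49, adjusted p = 0.0077) and SMED30019189 (-1.14 ± 0.30, adjusted p = 0.0063). SMED30029838, which rose from S2 to S4, was also lower in S2 than in Y (-2.18 ± 0.49, adjusted p = 0.0012) and in S6 than in S5 (-1.53 ± 0.49, adjusted p = 0.023, 0.14 without S5 replicate 1 and 0.090 without S6 replicate 4). These calls depended on the scaling of the libraries. The effective library size used by the authors was a median of 0.24 times the read total in Y, and 0.54, 1.07, 1.79, 1.72 and 1.81 times in the groups S4, S5, S6, C4 and SX, and with RPKM by read totals alone the log2 fold changes in S5 against S4 were -0.93, -0.99 and -0.31 and none of the 3 was called, nor was SMED30029838 in S2 (-0.85) or S6 (-0.76). The S5 call of SMED30029838 was also lost without S4 replicate 1 (adjusted p = 0.055), and that of SMED30019189 without S4 replicate 1 or S5 replicate 3 (-0.84 and -0.91, under the 2-fold limit). SMED30035711, which had appeared in S2 embryos, fell from 0.292 to 1.74 RPKM in S5 to 0.0775 to 0.142 in S6 (-2.10 ± 0.63, adjusted p = 0.015), a call lost without S5 replicate 1 or 2 (adjusted p of 0.055 and 0.068) and without the scaling (-1.64).

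None of the 73 was on the study's lists of neoblast-enriched transcripts, of the zeta, gamma and sigma neoblast subclasses, or of transcripts with gut, epidermis, eye, pan-neural, muscle or protonephridia expression noted in adults, in the tables as held here. Each list held at most 0.855% of the 9704 transcripts averaging at least 5 RPKM in C4, so an absence among 73 is near the background. The lists were drawn by the study partly from these libraries. For list transcripts averaging at least 5 RPKM in C4, the median log2(SX/C4) was -0.14 for the 83 neoblast-enriched, -0.21, -0.54 and -0.69 for the 39 gamma, 38 zeta and 35 sigma, and -0.28 for the 54 gut transcripts. It was -0.77 for 19 epidermis, -0.87 for 21 eye and -1.44 for 12 pan-neural transcripts, -1.22 for 3 muscle and 0.00 for 2 protonephridia transcripts, beside -0.32 for all transcripts at that C4 level and -2.81 for the 73, whose value follows from their choice.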

How the data were processed

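The authors aligned 50-base single-end reads from polyA RNA (500 ng input, 100 ng for S2 and S3) to a Smed transcriptome with Bowtie (2 mismatches, up to 5 matches a read), and the deposited RPKM values were made by the authors from counts with TMM scaling in edgeR, a ribosomal RNA transcript being removed. The submitters' processing notes name CASAVA 1.8.2. The table held 35262 transcripts in 40 samples, and each value was a whole number of reads within 0.001, from which reads and transcript lengths were rebuilt. These matched all 3782 lengths in the study's tables. Each sample had 5732627 to 17479851 reads. Levels were averaged per group (n = 4). Each sample was a single embryo, animal or capsule, and nothing states that those of a group came from separate cultures, so p-values measure the spread between these samples, which may be partly technical. The 5 comparisons were fitted with limma 3.58.1 in R 4.3.3 on log2(RPKM + 0.1), 1 coefficient per group over the 32 Y and S2 to S8 samples, for transcripts with RPKM summing to at least 1. The trend option of eBayes was used, and p-values were two-sided and adjusted over all transcripts. A fold change on this scale can understate the change of low transcripts. Where 1 read is worth far more than 0.1 RPKM, it can also overstate a change from 0 to a few reads, as for SMED30005348 in S2 against Y. The study compared adjacent stages. Here S4 was compared with S2 and S3 with neither, and rRNA transcripts were left out. The fit was tested on simulated data. Alternatives varied the pseudocount, the filter, the scaling, the weights, the samples, the replicate block, the thresholds and the test.

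Transcripts named are the 10 with the highest C4 average, the 2 with the largest called change without overlap per comparison and direction, those with 0 SX reads, up to 5 split in S7 or S8, all with a protein match, those nearest each limit, and the 3 most like SMED30026394. SMED30028674, SMED30021433 and the CAP transcripts outside the 73 were added after their values were seen. The 73 transcripts and the lists were chosen with earlier results of these data known. Transcript sequences were not used here.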

Additional observations from a re-analysis of the deposited data

Results flagged for a closer look

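For 36 named transcripts, the 4 samples of S7, S8, C4 and SX were examined for a sample whose gap to the next, divided by the whole range, exceeded Dixon's 95% critical value, which chance gives in about 1 of 20 groups. Of 144 groups, 9 (6.25%) had such a sample. In C4, replicate 2 was the high sample for SMED30026394 (930 RPKM, others 637 to 662) and SMED30020710 (72.7, others 43.99 to 48). In S7, SMED30018331 had a low sample at 18.1 RPKM (others 30.7 to 32.8), SMED30001640 a high one at 3.32 (others 1.33 to 1.67) and SMED30003541 a high one at 4.02 (others at 0). In S8, SMED30006450 had a low sample at 4.37 RPKM (others 14.1 to 15.7) and SMED30000960 at 10.1 (others 12.9 to 13.3). In SX, SMED30004110 had 0.454 RPKM in 1 sample (others at 0) and SMED30029570 had 1.82 (others 0.994 to 1.14).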

How the results depend on the processing

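The 73 transcripts were 81 with medians, 43 at a C4 limit of 10 RPKM, 20 at an SX limit of 0.1 of C4, and 123 with RPKM by total reads without TMM, where 67 of the 73 were kept and C4 values rise by the scaling factor (median 1.72). Leaving out a C4, SX or S8 sample gave 67 to 99 (76 without C4 replicate 2, 64 of them shared, and 99 without SX replicate 1). By onset, 9 (0.5 of C4) and 35 (1 RPKM) in place of 14 fell between Y and S4, 26 (0.1) and 8 (0.5) in place of 16 in S5 or S6, and 26 (0.1), 20 (0.5) and 21 (1 RPKM) in place of 43 in S7 or S8. With a lowest value of 0.2 of the highest, split transcripts in the groups S6, S7, S8, C4 and SX numbered 4, 3, 5, 1 and 2. At 0.05 the S7 group had 0, and at 10 RPKM the S5 group had 1 in place of 3. Called transcripts numbered 12 (S2 against Y), 7 (S4 against S2), 13 (S5 against S4), 39 (S6 against S5) and 12 (S7 against S6). They became 4, 2, 8, 25 and 22 with a pseudocount of 1, and 0, 0, 0, 2 and 0 under the study's thresholds, where limma gave 20, 19, 22, 45 and 24 at an unadjusted p under 0.05. On the 2 groups alone they were 3, 2, 4 and 24 (again 39 for S6 against S5, 36 of them shared). They were 4 (S4 against S2) and 35 (S7 against S6) with sample weights, 6 for S5 against S4 with quantile normalization, and 1 (pseudocount of 0.01) and 26 (voom on rebuilt reads) for S7 against S6. The cause was not tested. Leaving out 1 sample gave 8 to 14, 4 to 9, 6 to 14, 26 to 41 and 4 to 14. Of the single calls, that of SMED30005718, S2 against Y, turned to -0.0736 with quantile normalization, and no other of 913 values reversed. Same-numbered samples correlated between neighbouring groups at -0.17 to 0.18, with 1 of 20 pairs over 0.1. The authors put 1 replicate of each group but SX in each lane, so same-numbered samples may share a lane. These correlations cannot decide that, and the main fit did not use the numbers as pairs. With the replicate block 11, 8, 15, 41 and 9 were called, and 4 of the 20 samples correlated best with their own number.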
